A study of Rattus norvegicus with 80 samples.

Results

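Cultured mammary fibroblasts of the Nf1-mutated rat line IFPS were compared with those of the Nf1-mutated line PS, 3 RNA-sequencing libraries against 3, which makes 6 of the 80 libraries of the series. The members are the fibroblast libraries whose descriptions give the genotype IFPS or PS. The pair was chosen because it was known from earlier results to be the largest line difference among fibroblasts, so the size of its total count is not a finding. The labels give no meaning for IF, PS and IFPS, and they do not give the alleles, the animals' age or whether animals were pooled. A total of 3 wildtype and 3 IF fibroblast libraries, the IF line being the other mutated line, entered the same fit. All 12 came from cells kept in culture and lysed near confluency in six-well plates, per the labels' protocols, so they describe cultured cells and not fibroblasts in the gland. The series' design text calls the normal cell types flow sorted, with no gate given. The labels do not say whether the replicates came from separate animals, and p-values then measure only the spread between these libraries, which may be technical.

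Nf1 encodes neurofibromin, a GTPase-activating protein that returns Ras to its inactive, GDP-bound state and so restrains the MAPK and PI3K pathways. Mammary fibroblasts make and remodel the collagen-rich stroma around the ducts and send growth factors to the epithelium, and related stromal precursors can become fat cells. The series title names mammary collagen deposition and adipocyte differentiation as its subjects. The deposited counts carry Ensembl rat gene identifiers, and 0 of the 32883 identifiers could be paired with a symbol in the reference table used here. The level of Nf1, the collagen, Ras and adipocyte gene lists, and the defining markers of fibroblasts were therefore not analysed here, and the labelled cell type was not checked by named markers. In their place, genes were grouped by where wildtype cells express them, by their abundance, and by where the wildtype and IF levels lay.

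Total counts were 26.0e6, 32.0e6 and 25.5e6 in IFPS and 34.6e6, 36.0e6 and 37.3e6 in PS replicates 1 to 3, so every PS library was deeper than every IFPS library. The wildtype and IF libraries had 24.4e6 to 29.2e6, and 17187 to 17567 identifiers had at least 1 count in a fibroblast library. All 12 pairs of libraries of one line differed by more than sampling noise (chi-square over its degrees of freedom at least 10.7), and each library counted as 1 replicate. One IFPS library was less like its own group. IFPS replicate 2 correlated more closely with wildtype replicate 3 (Spearman correlation over genes 0.9954) than with IFPS replicates 1 and 3 (0.9925 and 0.9915). Where a fit was repeated without such a library, its result is given both ways if the call or the value moved. Positions and orders of the lines were not recomputed.

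On the first principal component of log2 CPM, which held 41.9% of the variance, the IFPS and PS libraries lay at opposite ends. CPM is the count of a gene relative to its library's TMM-scaled total, and a prior count of 2 was added before taking logs. The IFPS scores were 42.4, 38.9 and 32.6, and the PS scores were -27.2, -39.2 and -33.0. The IF libraries lay on the PS side at -14.4, -15.1 and -28.7. The wildtype libraries were spread between the ends at -4.14, 9.84 and 37.997, and wildtype replicate 3 lay among the IFPS libraries. The median Spearman correlation was 0.993 between IFPS libraries, 0.995 between PS libraries and 0.975 between an IFPS and a PS library. The last of these was below the median for IFPS with wildtype (0.990), for IFPS with IF (0.981), for PS with IF (0.989) and for PS with wildtype (0.984). These correlations are across genes, which are not independent replicates, and are given as a description.

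**Figure D1:**
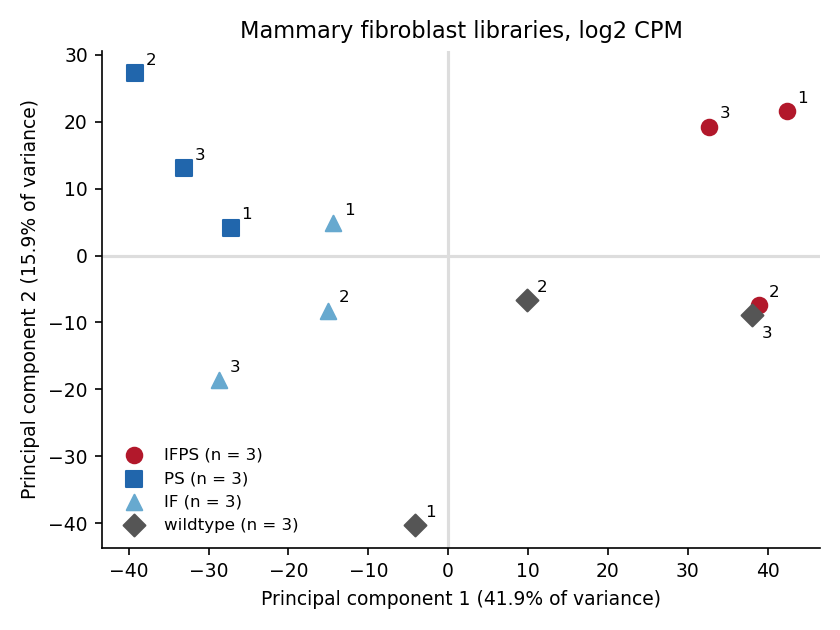
Scores of the 12 fibroblast libraries on the first (horizontal axis, 41.9% of variance) and second (vertical axis, 15.9% of variance) principal components of log2 CPM, with the replicate number beside each point. IFPS libraries (circles) lie at 32.6 to 42.4 on the first component and PS libraries (squares) at -39.2 to -27.2, with IF (triangles) nearer PS and wildtype replicate 3 (diamond) next to IFPS replicate 2.

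Of 13879 genes tested, 5617 differed between IFPS and PS fibroblasts at an adjusted p-value under 0.05 in edgeR's quasi-likelihood test (40.5% of the genes tested). Higher in IFPS were 2826 genes (20.4%) and lower were 2791 (20.1%), so the changes were split nearly evenly by direction. Most were small: the median absolute log2 fold change of the changed genes was 0.50, with quartiles of 0.33 and 0.94. At least 2-fold changes were seen for 1275 genes (9.19% of the genes tested), 652 higher and 623 lower in IFPS. Beyond 4-fold, genes lower in IFPS outnumbered those that were higher. At least 4-fold, 93 genes were higher and 161 lower, and at least 8-fold, 14 were higher and 48 lower.

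The libraries themselves separated along with the test. Among the 5617 changed genes the 3 IFPS values and the 3 PS values did not overlap for 5482, 2741 in each direction, and 135 changed genes had overlapping libraries. Over all genes tested, 7633 (55%) had no overlap between the groups. The median SD of log2 CPM within a group was 0.121 in IFPS and 0.1003 in PS. The median log2 fold change of all tested genes was 0.00. The share of changed genes that were higher stayed between 48.7% and 51.3% under every scaling, filter, tool and left-out library tried. All scalings used place the log ratios of most genes near 0, so they largely set this median and the even split. A shift of all genes in the same direction could not be seen. With all libraries thinned to the depth of the shallowest, 5416 genes passed, 50.1% of them higher.

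The share of genes called rose with abundance while the median size of the called changes fell. At low counts only larger changes can pass the test, and the part of this in both trends was not tested. The tested genes were cut into 5 bins of equal size by mean CPM over the 12 libraries. From the least to the most abundant bin, 26.0%, 36.1%, 43.0%, 48.0% and 49.4% of the genes passed the test, against the 40.5% overall. The median absolute log2 fold change of those genes went from 1.43 in the lowest bin through 0.79 and 0.46 to 0.37 in the 2 highest bins. At least 2-fold changes numbered 575, 366, 167, 74 and 93 from the lowest to the highest bin. In the highest bin these were 26 higher and 67 lower in IFPS, whereas in bins 2 and 3 from the bottom more were higher (221 against 145, and 109 against 58).

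The most abundant transcripts took a smaller share of the IFPS libraries. Of the 100 most abundant genes, 19 were higher and 41 lower in IFPS, and 40 did not pass the test. Over all genes tested 20.4% were higher and 20.1% lower, so the higher count was near the overall share and the lower count above it. These 100 genes held 31.7% ± 0.984 (SD, n = 3) of the counts in IFPS and 36.6% ± 0.510 (SD, n = 3) in PS. Of the 10 most abundant genes 1 was higher, 6 were lower and 3 did not pass, and their share was 14.2% ± 0.662 (SD, n = 3) in IFPS and 18.4% ± 0.626 (SD, n = 3) in PS. The IFPS libraries ran from 13.7% to 14.9% and the PS libraries from 17.9% to 19.1%, with no overlap. The same share was 17.8% ± 0.670 (SD, n = 3) in IF and 15.7% ± 0.917 (SD, n = 3) in wildtype fibroblasts. These shares are of all counts, so a lower share of some genes raises the others by construction.

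**Figure D2:**
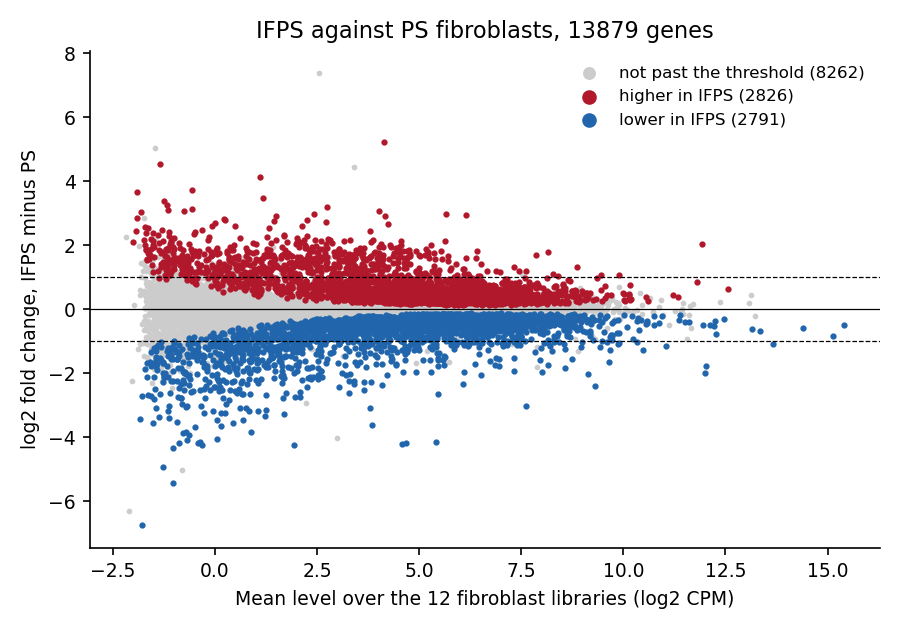
Log2 fold change of IFPS minus PS fibroblasts (vertical axis) against the mean log2 CPM over the 12 fibroblast libraries (horizontal axis) for 13879 genes, with 2826 genes higher and 2791 lower in IFPS in colour and dashed lines at a 2-fold change. Small changes pass the test at high levels, and the strongly changed abundant genes are mostly lower in IFPS.

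Individual genes could be named by identifier only. Of the 5617 changed genes, 4608 had no overlap of the 6 libraries and a mean of at least 5 CPM in the higher group, 2345 higher and 2263 lower in IFPS, and the 2 with the largest fold change in each direction are described. They were chosen for this contrast, so their IFPS and PS levels describe them and support nothing further. Their other-tissue values were not used in the choice. The wildtype and IF fibroblast values entered it only through the shared fit, but their comparisons share the IFPS or PS libraries with the choice. Levels are compared between libraries and not between genes, since CPM is not corrected for gene length.

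ENSRNOG00000061254 had the largest gain in IFPS. Its level was 23.95, 11.5 and 25.1 CPM in IFPS replicates 1 to 3 and 0.393, 0.697 and 0.500 CPM in PS, the latter resting on 13 to 24 counts a library. The IF libraries had 26.1, 15.6 and 13.8 CPM and the wildtype libraries 43.5, 31.5 and 21.3 CPM. The PS line thus stood alone at the bottom, and IFPS, IF and wildtype libraries overlapped. The log2 fold change was 5.23 ± 0.47 (SE) between IFPS and PS, with an adjusted p of 0.000128 in edgeR's quasi-likelihood test. Against wildtype in the same fit, the PS difference was -5.90 (adjusted p = 0.000119) and the IFPS difference -0.67 (adjusted p = 0.268). Against IF, they were -5.11 (adjusted p = 0.000776) for PS and 0.12 (adjusted p = 0.800) for IFPS. These differences reuse the PS and IFPS libraries by which the gene was chosen and only describe where its levels lay.

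ENSRNOG00000013279 had its highest level in IFPS and its lowest in PS. IFPS replicates 1 to 3 had 6.41, 2.32 and 6.73 CPM, and PS had 0.212, 0.261 and 0.389 CPM, or 7 to 14 counts. IF libraries lay at 1.13 to 1.24 CPM, above every PS and below every IFPS library. Wildtype libraries had 0.541, 1.94 and 3.12 CPM and overlapped the IFPS range through replicate 3. The log2 fold change of IFPS against PS was 4.13 ± 0.60 (SE), with an adjusted p of 0.000533 in edgeR. IFPS differed from IF by 2.13 (adjusted p = 0.0116), and PS from IF by -2.001 (adjusted p = 0.0972). Against wildtype, PS was lower by -2.69 (adjusted p = 0.0141) and IFPS had 1.44 (adjusted p = 0.144). These calls against wildtype turned on single libraries. Without wildtype replicate 3 the IFPS difference had an adjusted p of 0.0393 and the PS difference one of 0.0578, and without PS replicate 2 the latter had 0.0574.

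ENSRNOG00000013916 was lower in IFPS than in PS. The PS libraries had 5.89, 14.6 and 7.17 CPM and the IFPS libraries 0.326, 0.386 and 0.756 CPM, or 9 to 20 counts. The IF libraries had 3.55 to 4.74 CPM and the wildtype libraries 0.355 to 1.45 CPM. The PS and IF lines were high and the IFPS and wildtype libraries were low, with no overlap between these pairs. The log2 fold change of IFPS against PS was -4.25 ± 0.50 (SE), with an adjusted p of 0.000235 in edgeR. Against wildtype PS was higher by 3.43 (adjusted p = 0.00218), whereas IFPS had -0.81 (adjusted p = 0.435). IFPS was lower than IF by -3.11 (adjusted p = 0.00178), and PS had 1.13 against IF (adjusted p = 0.129).

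ENSRNOG00000005825 followed the same order of lines. PS replicates 1 to 3 had 24.0005, 120 and 55.4 CPM, and IFPS had 4.86, 2.17 and 3.93 CPM. IF libraries lay at 13.1 to 23.996 CPM and wildtype libraries at 1.88 to 8.20 CPM. The PS libraries were the most variable, their highest holding 4148 counts and their lowest 794, and PS replicate 1 lay level with the highest IF library. The log2 fold change of IFPS against PS was -4.20 ± 0.64 (SE), with an adjusted p of 0.000654 in edgeR. PS was higher than wildtype by 3.57 (adjusted p = 0.00539), and IFPS had -0.64 against wildtype (adjusted p = 0.597). IFPS was lower than IF by -2.39 (adjusted p = 0.0158), and PS had 1.82 against IF (adjusted p = 0.0861).

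For these 4 identifiers the IFPS minus PS difference kept its direction and its call in 18 of 18 alternative fits each. For all 4 the PS difference from wildtype passed the test and the IFPS difference did not, except that for ENSRNOG00000013279 this was the other way round without wildtype replicate 3, and neither passed without PS replicate 2.

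**Figure D3:**
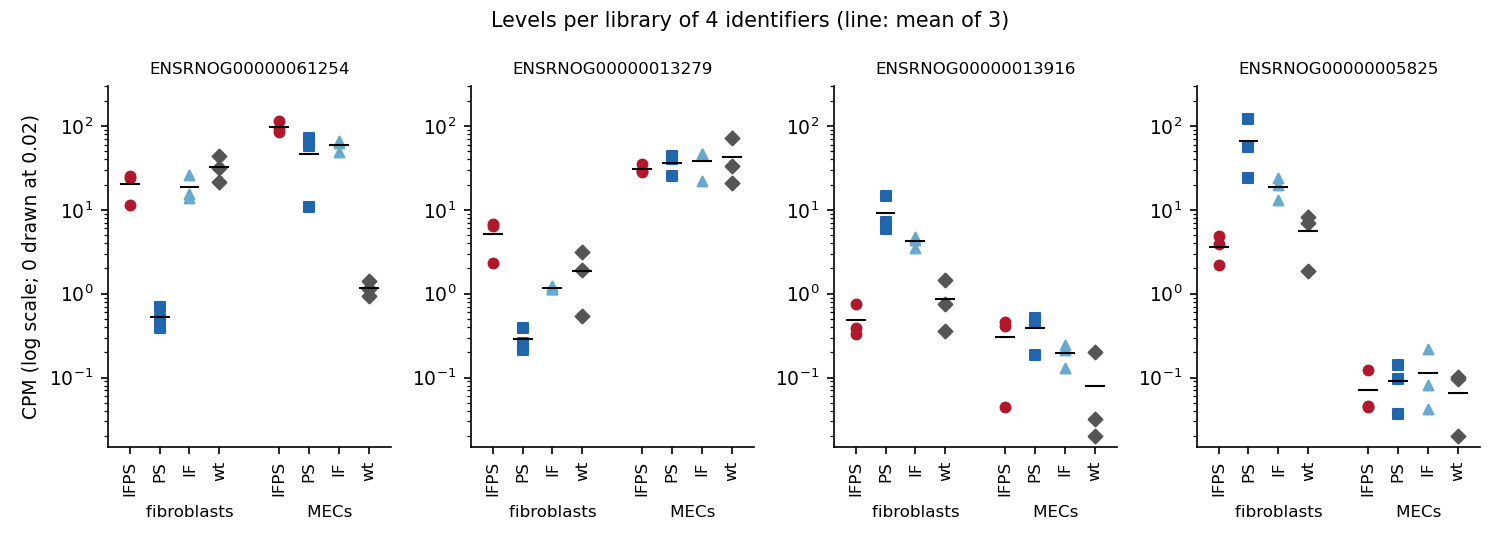
CPM per library (vertical axis, log scale, 0 drawn at 0.02) of the 4 identifiers in fibroblasts and mammary epithelial cells of each line, with 3 libraries per group and a line at the group mean. IFPS and PS fibroblast libraries are apart for every identifier, and the epithelial libraries of the same lines overlap or, for ENSRNOG00000061254, lie closer together.

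The wildtype and IF libraries lay between the lines for most changed genes. They are not among the libraries compared, but they entered the filter, the scaling and the spread that decided which genes passed. For each of the 5617 genes the mean log2 CPM of IFPS and of PS marked the ends, and each other library was placed between them. The wildtype mean fell between the ends for 86.9% of the genes, and its median position was 61.7% of the way from PS to IFPS. It was nearer IFPS for 3845 genes (68.5%) and nearer PS for 1772. The IF mean fell between the ends for 74.6%, with a median position of 27.2% of the way from PS to IFPS, and it was nearer IFPS for 1451 genes (25.8%). The IF libraries thus lay toward PS. A group that has no tie to either line would also tend to fall between the ends, because the genes were chosen for a gap between them.

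The wildtype libraries did not share one position. Wildtype replicates 1, 2 and 3 were nearer IFPS for 40.8%, 61.6% and 88.0% of the genes, so replicate 1 lay toward PS and replicate 3 close to IFPS. Median positions were 40.3%, 57.8% and 88.2% of the way from PS to IFPS. The IF replicates were nearer IFPS for 29.5%, 31.5% and 26.6% of the genes and lay closer together. Over the 1275 genes with at least a 2-fold change, the wildtype mean was nearer IFPS for 67.2% and the IF mean for 22.7%.

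**Figure D4:**
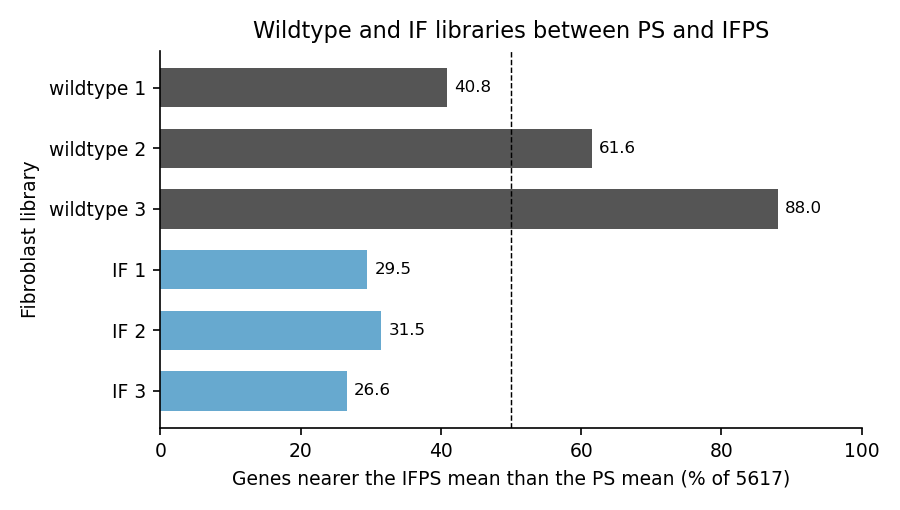
Share of the 5617 changed genes (horizontal axis, percent) for which each wildtype or IF fibroblast library lay nearer the IFPS mean than the PS mean, with a dashed line at 50%. The 3 IF libraries range from 26.6% to 31.5%, and the wildtype libraries from 40.8% to 88.0%.

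In order of the group means, a single ranking of the lines was the commonest among higher genes and its reverse among lower genes. Of the 2826 genes higher in IFPS, 1445 (51.1%) had the order IFPS, wildtype, IF, PS from highest to lowest, and 572 (20.2%) had IFPS, wildtype, PS, IF. Of the 2791 genes lower in IFPS, 1527 (54.7%) had PS, IF, wildtype, IFPS, and 470 (16.8%) had IF, PS, wildtype, IFPS. IFPS and PS were at both ends for 62.5% of the higher and 68.7% of the lower genes. Among genes with at least a 2-fold change these shares were 64.9% and 73.7%. The place of wildtype rests on the mean of libraries that did not share one position, and orders without wildtype replicate 3 were not computed. The choice of genes by IFPS and PS favours orders with these lines at the ends. An order is that of the means alone, and no test between neighbouring lines entered it.

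To describe which kinds of genes changed without symbols, genes were classed by their levels in the wildtype cells of the series, with the changes in the mutated lines left aside. A gene was enriched in a cell type if its mean there was at least 4-fold above that in both other cell types, among fibroblasts, mammary epithelial cells (MECs) and adipocytes. This gave 294 fibroblast-enriched, 878 MEC-enriched and 1031 adipocyte-enriched genes, and 7075 genes within 2-fold in all 3 cell types. Tested in fibroblasts were 294, 498, 657 and 7007 of them. A class says where wildtype cells held the RNA, and a gene can be of another class in the mutated lines.

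Fibroblast-enriched genes were more often lower than higher in IFPS. Of the 294, 123 passed the test (41.8%, against 40.5% of all genes tested), 42 higher (14.3%, against 20.4%) and 81 lower (27.6%, against 20.1%). At least 2-fold changes were 18 higher and 35 lower. The median log2 fold change of the whole class was -0.19, against 0.00 over all genes. Their summed level was 96123, 97397 and 105447 CPM in IFPS replicates 1 to 3, and 136076, 142478 and 132270 CPM in PS. In this sum, which weighs abundant genes most, the groups did not overlap, and the IF libraries, at 130330 to 145146 CPM, lay with PS. The wildtype libraries had 125231, 126302 and 105025 CPM, replicate 3 falling within the IFPS range. By the median log2 CPM of the class, IFPS and PS nearly met. It was 3.658, 3.807 and 3.785 in IFPS replicates 1 to 3, and 3.894, 3.811 and 3.9997 in PS. On that measure the IF libraries, at 4.02 to 4.21, lay above every PS library. The wildtype libraries, at 3.93 to 4.15, lay above every IFPS library. ENSRNOG00000061254, higher in IFPS, belongs to this class and went against its main direction.

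In bulk RNA such as this, fewer cells of a type and less RNA per cell cannot be told apart. That holds for each class below, which by definition gathers genes of another cell type.

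MEC-enriched genes were mostly higher in IFPS among those that changed. Of the 498 tested, 179 passed (35.9%, against 40.5%), 145 higher (29.1%, against 20.4% of all genes) and 34 lower (6.83%, against 20.1%). At least 2-fold, 125 were higher and 25 lower, and the median of the tested genes of the class was 0.54 on the log2 scale. Without the low-count filter, 158 were higher and 33 lower, with 5188 genes called in all. Their level was low throughout: the 878 genes summed to 3683, 2315 and 3843 CPM in IFPS and 2004, 3017 and 2418 CPM in PS, against a median of 35818 CPM in wildtype MECs. This was 6.46% to 10.7% of the wildtype MEC level in IFPS and 5.59% to 8.42% in PS, and the groups overlapped. Between 103 and 122 of the 878 genes were at 0 in an IFPS library and between 127 and 151 in a PS library.

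The MEC-enriched count moved with single libraries. The number higher in IFPS was 83 without IFPS replicate 1, 88 without IFPS replicate 3, 89 without PS replicate 1 and 92 without PS replicate 3. It was 184 without IFPS replicate 2, the IFPS library with the lowest summed MEC-enriched level. The number lower was 34 with all libraries and 23, 36, 37, 26 and 26 in these fits, in the same order. Over all genes tested, 5617 passed with all libraries and 4210, 4890, 4678, 4583 and 4951 in these fits. The part of RNA from epithelial cells in the result was not tested, and named epithelial markers were not analysed here. ENSRNOG00000013279 is of this class. Its IFPS replicate 2 level of 2.32 CPM was also the lowest of the 3, while wildtype replicate 3 had 3.12 CPM with a summed MEC-enriched level of 2042 CPM, below all 3 IFPS libraries.

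Adipocyte-enriched genes were mostly lower in IFPS among those that changed. Of the 657 tested, 276 passed (42.0%, against 40.5% of all genes), 68 higher (10.4%, against 20.4%) and 208 lower (31.7%, against 20.1% of all genes). At least 2-fold, 26 were higher and 140 lower, and the class median was -0.27 on the log2 scale. The higher count fell to 44 without PS replicate 2, while the lower count fell to 159 and the calls over all genes tested to 4372. With all libraries but no low-count filter, 61 were higher and 226 lower. The summed level of the 1031 genes was 13453 to 14663 CPM in IFPS and 15021 to 16184 CPM in PS, which do not overlap. Wildtype fibroblasts reached from 14421 to 19334 CPM and IF from 14168 to 17054 CPM, across both ranges. Wildtype adipocytes had a median of 229293 CPM, on the separate scale of the wildtype cells. Between 141 and 162 of the genes were at 0 in an IFPS library and between 111 and 147 in the deeper PS libraries. The part of RNA from adipocytes in the result was not tested.

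Genes at a like level in all 3 wildtype cell types seldom changed by much. Of the 7007 tested, 2725 passed (38.9%, against 40.5% of all genes), 1477 higher (21.1%, against 20.4%) and 1248 lower (17.8%, against 20.1%), and 2.04% passed with at least a 2-fold change. That share was 18.03% of the fibroblast-enriched, 30.1% of the MEC-enriched and 25.3% of the adipocyte-enriched genes tested, against 9.19% of all genes. Such changes were also commoner at low abundance, in 575 of 2776 genes of the lowest bin and 93 of 2776 of the highest. Over the 12 libraries the class median log2 CPM was -0.15 to 1.05 for MEC-enriched, 1.49 to 2.11 for adipocyte-enriched and 3.66 to 4.21 for fibroblast-enriched genes. The part of abundance in these shares was not tested. With an 8-fold difference as the definition, the lean of the fibroblast-enriched genes was smaller: 23 of 138 were higher (16.7%, against 20.4% of all genes) and 33 lower (23.9%, against 20.1%), with a class median of -0.10. Of 302 MEC-enriched genes 110 were higher (36.4%) and 14 lower (4.64%), and of 350 adipocyte-enriched genes 27 were higher (7.71%) and 103 lower (29.4%).

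**Figure D5:**
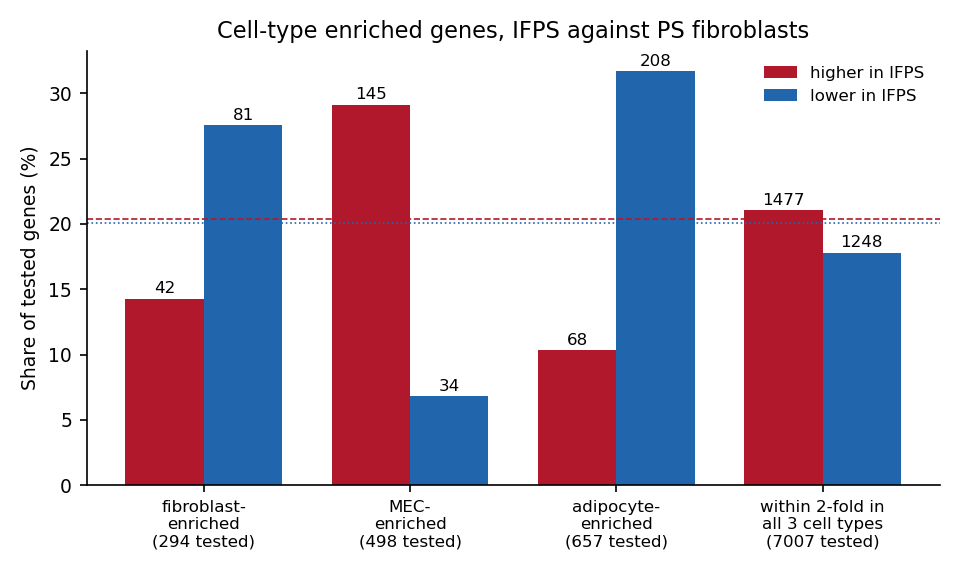
Share of the tested genes of each class (vertical axis, percent) that were higher or lower in IFPS than in PS fibroblasts, with the number of genes above each bar and lines at the share of all genes tested, 20.4% higher (dashed) and 20.1% lower (dotted). Fibroblast- and adipocyte-enriched genes that changed are mostly lower in IFPS, and MEC-enriched genes are mostly higher.

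The same pair of lines was then compared in the other tissues. In MECs, cultured and extracted like the fibroblasts, 10 of 14688 genes passed the test (0.0681%), 3 higher and 7 lower in IFPS, and 1541 had an unadjusted p under 0.05. Of the 9 of these genes that were tested in fibroblasts, 8 had also passed there, 7 in the same direction and 1 in the opposite one. In adipocytes, 4 of 14304 genes passed (0.028%), 1 higher and 3 lower, and 832 had an unadjusted p under 0.05. All 4 were tested in fibroblasts, where 3 had passed in the same direction. DESeq2 called 133 genes in MECs and 102 in adipocytes.

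In whole mammary pads and in tumors, edgeR called no gene. In pads it was 0 of 16384 (0%) from 6 libraries a line, with 864 genes at an unadjusted p under 0.05 and 33 called by DESeq2. In tumors it was 0 of 15966 (0%) from 9 libraries a line, with 3537 genes at an unadjusted p under 0.05 and 1173 called by DESeq2. A gene that misses the threshold there is not shown to be equal in the lines.

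Signs were compared next, as a description with no test. Same-numbered fibroblast and MEC libraries deviated together from their group means (correlations over genes of 0.133 to 0.318), which by itself can raise the share of like signs in MECs, and its part in the share was not tested. Of the genes that changed in fibroblasts, 65.5% had the same sign of the IFPS minus PS difference in MECs, against 53.4% of the genes that did not change. The shares were 55.2% and 51.8% in adipocytes, 45.6% and 50.0% in pads, and 43.1% and 48.3% in tumors. Median correlations of same-numbered libraries with fibroblasts were 0.098 in adipocytes and 0.062 in pads, against 0.241 in MECs. Their part in the adipocyte and pad shares was not tested either. The size of the difference was small in MECs even for the strongly changed genes. The median log2 fold change there was 0.11 for genes at least 2-fold higher in IFPS fibroblasts and -0.10 for genes at least 2-fold lower. Of the 81 fibroblast-enriched genes that were lower in IFPS fibroblasts, 75 were tested in pads, where 25 had a positive value and the median was -0.12, and 73 in tumors, where 59 did and the median was 0.76. Of the 42 that were higher, 41 were tested in pads (18 positive, median -0.06) and 39 in tumors (26 positive, median 0.82). Over all genes the median was 0.00 in pads and 0.03 in tumors. Genes of both directions thus leaned the same way within a tissue, and none of them passed the test in pads or tumors.

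Whether the line difference itself differed between fibroblasts and MECs was tested as an interaction in one fit of both cell types. The pair was chosen for its large fibroblast difference, which favours a large count here, so the size of the count is not a finding. The line difference differed for 3356 of 15224 genes (22%), of which 1867 had a more positive IFPS minus PS value in fibroblasts and 1489 a more negative one. Of the 5616 fibroblast-changed genes in that fit, 3038 (54.1%) were among them, a share that the reuse of the fibroblast values favours, and 1005 of the 3356 differed by at least 2-fold. Of the 8 genes that had passed the test in both cell types, 1 had done so in opposite directions. That count is limited by the 10 genes called in MECs. Fibroblast and MEC libraries with the same title number deviated together, so the number was also fitted as a block. That gave 3718 genes, 3097 of them shared with the 3356.

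The identifiers were chosen for large fibroblast differences, so a large interaction is built into the choice, and their interactions are given as a description. ENSRNOG00000061254 differed by 1.05 ± 0.46 (SE) between IFPS and PS MECs (adjusted p = 0.449). Its MEC levels were 92.6, 85.9 and 113 CPM in IFPS and 71.9, 58.0 and 10.8 CPM in PS, and 0.933 to 1.43 CPM in wildtype MECs. The low levels in wildtype MECs and adipocytes placed the gene in the fibroblast-enriched class, while IFPS, PS and IF MECs all lay above every wildtype MEC library. The interaction was 4.19 ± 0.79 (SE) on the log2 scale. In adipocytes, pads and tumors its IFPS minus PS difference was -2.52 (adjusted p = 0.829), -2.47 (adjusted p = 0.999) and -1.34 (adjusted p = 0.180). The pad level was 65.3 to 109 CPM in a run of adjoining title numbers and at most 9.87 CPM in all other pads. The run held PS pad replicates 1 to 3 but only replicate 4 of the IFPS pads. The covariate for title numbers splits the run, so the pad value is not adjusted for it.

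ENSRNOG00000013279 was abundant in MECs of every line, with 28.0 to 35.3 CPM in IFPS, 25.1 to 44.2 CPM in PS and 20.7 to 72.4 CPM in wildtype. Its IFPS minus PS difference was -0.24 in MECs (adjusted p = 0.866), and the interaction was 4.37 ± 0.83 (SE). ENSRNOG00000013916 was near 0 in MECs, at 1 to 10 counts in IFPS and 5 to 16 in PS. Its difference there was -0.33 (adjusted p = 0.896), and the interaction was -3.90 ± 0.95 (SE). In pads and tumors it had too few counts to be tested.

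ENSRNOG00000005825 had 1 to 4 counts in IFPS and PS MECs and was too low to be tested there by itself. Its interaction was -3.88 ± 2.73 (SE), the largest error of the 4, and did not pass the test (adjusted p = 0.333 in edgeR, 0.0701 with the title number as a block). It was far more abundant in pads, at 123 to 1010 CPM in IFPS and 161 to 1291 CPM in PS, than in fibroblasts, and adipocytes held 11.7 to 20.6 CPM in IFPS and 12.6 to 20.6 CPM in PS. The IFPS minus PS difference was -0.15 in adipocytes (adjusted p = 0.997), 0.01 in pads (adjusted p = 0.999) and -0.38 in tumors (adjusted p = 0.765), and the libraries of the lines overlapped in each.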

How the data were processed

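RNA of 80 rat libraries was sequenced, of which the 12 fibroblast libraries carried the comparison. The deposited table holds raw counts per Ensembl gene identifier, used as deposited. Reads were processed with Trim Galore and STAR 2.5.2b on Rnor_6.0, per the submitters' processing notes. The counting tool, annotation and strand setting are not given in the sources used here, so genes that share reads with a copy, an overlapping or an antisense gene are uncertain. Columns were matched to samples by title, and groups came from the description.

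Counts were tested with edgeR 4.0.16 in R 4.3.3 (TMM factors, filterByExpr, quasi-likelihood test, Benjamini-Hochberg adjustment over all genes tested, threshold 0.05) in one fit of the 12 fibroblast libraries, coded IFPS minus PS. Standard errors are the absolute log2 fold change over the square root of F. The other tissues had fits of their own, that of the pads with a covariate for title numbers up to 12 against 13 to 21, and an interaction fit joined fibroblasts and MECs. Alternatives were RLE and upper quartile factors, no filter, DESeq2 1.42.0, only the groups compared, thinned counts, a replicate block and leaving out each library.

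The members and lists were chosen with earlier results of these data known. The planned rule for named genes asked for symbols (the 15 largest changes each way, Nf1 and members of 31 gene lists). With 0 identifiers matched among 47357 gene records, the 31 lists, 11 marker lists and promoter motifs were not applied. The 2 identifiers with the largest change each way under that rule's other conditions are named, and the cell-type classes and positions were defined after the data were seen. The MEC-enriched and other class counts carry no test.

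Pairing by title number was checked by the correlation of deviations from the group means over 12095 genes. It was 0.133 to 0.318 for fibroblasts with MECs, and all 12 libraries correlated best with their own number. For adipocytes 6 of 12 correlations lay above 0.1, and 9 of 12 libraries correlated best with their own number. For pads these counts were 4 of 12 and 8 of 12. IFPS and PS fibroblasts share no number, so that comparison has no block.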

Additional observations from a re-analysis of the deposited data

Results flagged for a closer look

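The difference between IFPS and PS itself differed between fibroblasts and MECs by the interaction test for 3356 genes. The pair was chosen as the largest line difference among fibroblasts, which favours a large count, so its size is not a finding. Of the identifiers named, ENSRNOG00000061254 had an interaction of 4.19, ENSRNOG00000013279 of 4.37 and ENSRNOG00000013916 of -3.90 on the log2 scale. These 3 were chosen for their large fibroblast differences, which the interaction reuses, so their values describe the choice and support nothing further.

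In groups of 4 to 10 libraries, 16 levels of the 4 identifiers were checked for a library far from the others, and chance gives such a library in about 1 of 20 groups. ENSRNOG00000061254 had 1 IFPS pad at 65.3 CPM, against a median of 4.90 CPM in that group, and 1 PS tumor at 116 CPM, against a median of 36.1 CPM. That pad, IFPS replicate 4, was not alone among pads of all lines. IF replicate 3, PS replicates 1 to 3 and wildtype replicates 4 to 6, with adjoining title numbers, had 70.6 to 109 CPM. All other pads had 0.395 to 9.87 CPM. ENSRNOG00000013916 had 1 IFPS tumor at 0.915 CPM and 1 PS tumor at 0.233 CPM, against medians of 0.0369 and 0 CPM, which are levels of 12 and 5 counts. ENSRNOG00000005825 had 1 PS tumor at 2207 CPM, against a median of 195 CPM. None of these libraries is a fibroblast library, and the level of an identifier in 1 of them does not enter the fibroblast comparison.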

How the results depend on the processing

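The count of genes that differed between IFPS and PS fibroblasts ran from 4210 (without IFPS replicate 1) to 5927 (without wildtype replicate 1) when a library was left out. It was 5617 with RLE and 5624 with upper quartile factors, 5188 without a low-count filter, 5863 with DESeq2, 5416 with thinned counts and 5916 with only the IFPS and PS libraries. The count at 2-fold or more ran from 1030 to 1321 without a library. DESeq2 gave 133 genes in MECs, 102 in adipocytes, 33 in pads and 1173 in tumors. Leaving out a library gave 6 to 13 genes in MECs and 2 to 4 in adipocytes. Pads 1 to 12 alone gave 7 genes and pads 13 to 21 alone gave 0, a split added after the data were seen. The cause of these differences was not tested. The title number as a replicate block gave 3718 genes for the interaction, RLE factors 3360 and only the IFPS and PS groups 3863. No paired analysis was possible within fibroblasts because IFPS and PS share no title number. Other settings for gene lists by symbol were not run. Of the least abundant bin of genes 26.0% passed the test, and the part of depth in that share was not tested by bin.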
